A study of Mus musculus with 2 samples.

Results

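Costimulatory receptors give a T cell the second signal it needs beside its antigen receptor. CD28 on the T cell binds CD80 and CD86 on the antigen-presenting cell, and its relative ICOS sustains helper T cells through its own ligand. CD226 binds ligands of the nectin family, and the SLAM receptors mostly bind their own kind on a neighbouring cell and signal through the small adaptor SAP, the product of Sh2d1a. CD2 and its ligand CD48 hold the contact between the cells. The 10 genes Cd28, Icos, Cd80, Cd86, Cd226, Slamf1, Slamf6, Sh2d1a, Cd2 and Cd48 were taken by their gene name from the noncontrol probes of the arrays. They had 16 of the 55681 noncontrol probes and are 10 of 27665 named genes.

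Cultured mouse spleen cells were sorted for CD4+ T cells before RNA was taken, and the comparison asks how naive cells respond to antigen beside anergic cells, that is, cells that respond poorly to it. All donors were female mice of the OVA-TCR-Tg strain, whose T cells carry a transgenic receptor for ovalbumin (OVA), and all cells had 24 h with OVA at 0.1 mg/mL. The naive-only culture held spleen cells at 2500000 cells/mL. The co-culture held naive spleen cells at 1250000 cells/mL with the same number of spleen cells stimulated beforehand with the bacterial superantigen TSST-1 at 0.1 μg/mL, and no label tells if sorting kept these cells apart from the naive ones. The age of the mice, and whether spleens were pooled, are not given in the labels.

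With 1 array of 1 colour for each culture, the differences carry no check by replicates and could not be tested. Levels are log2 intensities relative to the 75th percentile of the same array, and differences are the co-culture level minus the naive-only level. The error beside a difference comes from the scanner software's error model. It covers the measurement of the spots and leaves out variation between cultures. Probes well above background made up 46.2% of the naive-only array and 45.1% of that of the co-culture. The listed CD4 T cell genes, among them Cd3e and Cd4, were all well above background on both arrays. This does not show how pure the sort was, because every listed B cell marker also exceeded background on the naive-only array. Levels of different probes cannot be set against each other, because probes bind with different strength.

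Of the genes, Cd226 stood furthest apart. It was 5.87-fold lower on the co-culture array, and Cd86 was 2.05-fold lower. The ligand gene Cd80 was higher, by 1.98-fold on its brighter probe and 2.83-fold on its other probe. All 10 genes were well above background on both arrays. On the probe that represents each gene, the one with the highest mean level over the arrays, 2 genes were at least 2-fold lower and 0 at least 2-fold higher. Among all 14378 genes measured in both cultures, 5.54% were lower and 7.72% higher by at least 2-fold. In all, 4 of the 10 differences were positive and 6 negative, with a median of -0.23, beside a median of -0.05 over all measured genes.

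**Figure D1:**
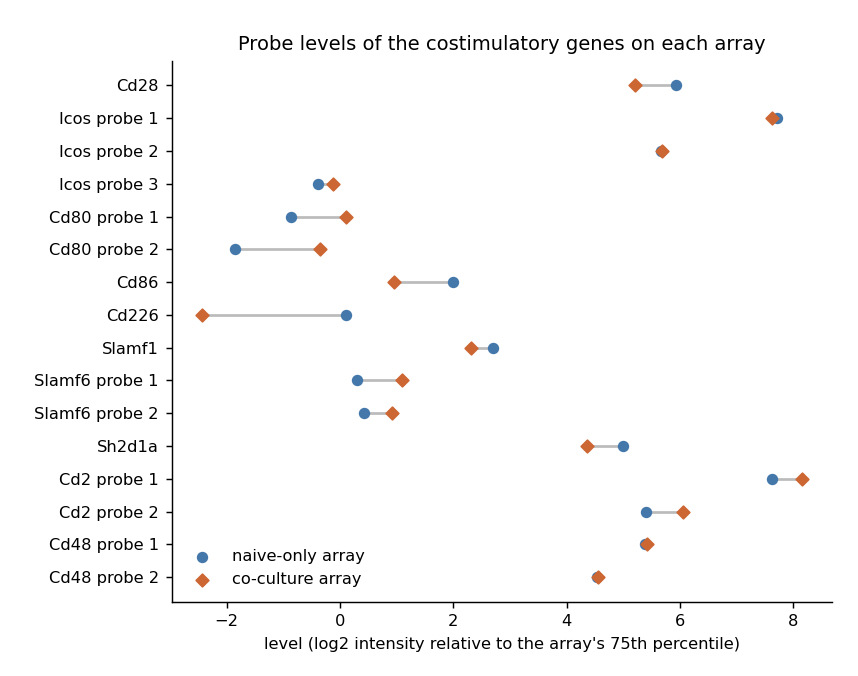
Level of each probe on the naive-only array (circles) and the co-culture array (diamonds), as log2 intensity relative to the array's 75th percentile; probe 1 of a gene is its brightest. The longest line is that of Cd226, from 0.11 down to -2.44, and the points of Cd48 and of the brighter Icos probes nearly coincide.

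A few of the probes are shown because they carry results below. The Cd80 probe is the one with the larger difference, the Slamf6 probe represents its gene, and the Cd2 probe was printed in 10 spots. Sequences and positions are those of the array files (mm9), at chr16:38479343-38479402 for Cd80, chr1:173871767-173871826 for Slamf6 and chr3:101083802-101086981 for Cd2. The Cd2 probe is 60 bases long but spans 3180 bases of the genome, so its sequence joins exons that an intron parts. Each of these probes can be read in at least 1 forward frame without a stop codon. Capitals in the Slamf6 probe mark a match, in the stop-free frame, to a coding pattern for the tyrosine motif of SLAM receptor tails (ITSM) on which SAP docks. In that pattern a codon that begins with AC is followed by any codon, a codon that begins with TA, any 2 codons and a codon with T in its middle. The pattern was searched on the given strand only, and 0.796% of all noncontrol probes held it in such a frame.
Cd80: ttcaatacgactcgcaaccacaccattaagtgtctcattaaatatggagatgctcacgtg
Slamf6: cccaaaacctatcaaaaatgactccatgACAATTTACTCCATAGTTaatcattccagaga
Cd2: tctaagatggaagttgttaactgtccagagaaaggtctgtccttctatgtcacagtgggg

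Cd28 encodes the primary costimulatory receptor of T cells. Its probe, on chromosome 1 at 60830144 to 60830203 (mm9), had an intensity of 18180 for naive-only and 11186 for co-culture cells, or levels of 5.92 and 5.21. It was lower on the co-culture array by a log2 difference of -0.71 ± 0.20 (technical error), which is 1.64-fold. Of the 14378 measured genes, 1532 had a lower difference.

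Icos encodes the inducible member of the CD28 family. Its brightest probe (chromosome 1, 61057105 to 61057164) had intensities of 62885 (naive-only) and 59808 (co-culture), a difference of -0.08 ± 0.20 that lies within its error. A probe at 61055103 to 61055162 gave 15302 and 15448, a difference of 0.00. The dim probe at 61052582 to 61052641 gave 229 and 276, a difference of 0.26. The array design gives it an Ensembl transcript name, and the other probes a RefSeq one. None of the Icos probes differed by 2-fold, and their signs were not the same.

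CD28 and ICOS sit on chromosome 1 on either side of Ctla4, which encodes the inhibitory receptor that competes with CD28 for CD80 and CD86. Among these 3 neighbouring protein-coding genes of RefSeq (order from GRCm38.p6), only Ctla4 was past 2-fold, at 1.12 ± 0.20. The level of Ctla4 relative to that of Cd28 within each array therefore changed by 1.83 ± 0.29, or 3.54-fold in favour of Ctla4, and by 1.78 with normexp background correction. Such a change of a ratio does not depend on a scaling by 1 factor per array, and in the deposited table, normalized otherwise, it was 1.75. It shows unequal change of the genes, and the same measure for Icos relative to Cd28 was 0.63 ± 0.29.

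Cd80 and Cd86 encode the ligands of CD28 and CTLA-4, which are best known from B cells, dendritic cells and macrophages and are also made by activated T cells. The brighter Cd80 probe (chromosome 16, 38486772 to 38486831) had an intensity of 164 for naive-only and 326 for co-culture, a difference of 0.98 ± 0.21 that falls just short of 2-fold. Of all measured genes, 1138 had a higher difference. The probe whose sequence is printed above had 83.2 and 237, a difference of 1.5 (log2) or 2.83-fold. Both probes were dim and were higher on the co-culture array. With normexp background correction the difference was 0.72 on the brighter probe and 1.04 on the other. The 1 probe of Cd86 (chromosome 16, 36603961 to 36604020) had 1191 and 585, a difference of -1.03 ± 0.20, just past 2-fold.

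Of the 6 genes of the CD28 family and its ligands, 1 was at least 2-fold higher (Ctla4) and 1 lower (Cd86), with a median of -0.20. The ligand genes thus differed in opposite directions, and the level of Cd80 relative to Cd86 changed by 2.02 ± 0.29, or 4.05-fold. The change was 1.67 with normexp and 2.53 with the dimmer Cd80 probe. The Cd86 call ended with normexp (-0.96), with median scaling (-0.98) and with the percentile taken over detected probes (-0.99). All 12 B cell markers measured in both cultures were lower by 2-fold or more in the co-culture (median -1.74), and their summed level was 58.5 for naive-only and 13.1 for co-culture (in units of the 75th percentile). The other 3 markers of that list exceeded background for naive-only alone. Of the 9 measured genes of class II antigen presentation 6 were at least 2-fold lower and none higher, with a summed level of 216 and 53.4. The part of such cells in the Cd80 and Cd86 values was not tested. In RNA of a cell mixture, fewer cells of a type and less RNA per cell cannot be told apart.

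**Figure D2:**
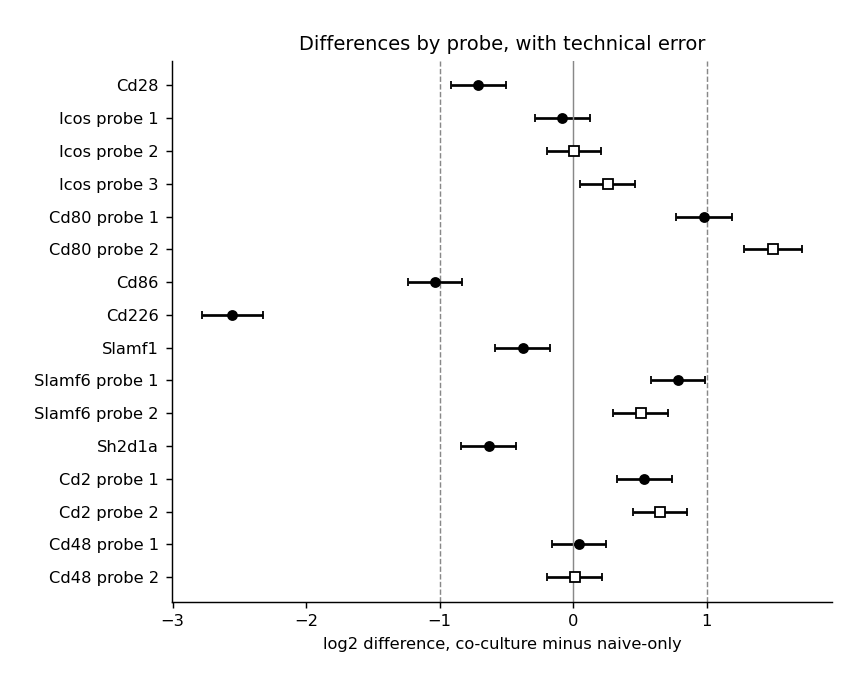
Log2 difference (co-culture minus naive-only) of each probe, with the technical error of the scanner software as the bar; filled circles represent the gene, open squares are its other probes, and dashed lines mark 2-fold. Cd226 lies beyond the lower line with its whole bar and the dimmer Cd80 probe beyond the upper one, whereas the bars of Cd86 and of the brighter Cd80 probe cross the 2-fold lines.

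Icosl, the gene of the ICOS ligand, was at -0.32 ± 0.23. The list of genes that act on the turnover or transport of these molecules had 6 measured genes, of which 1 was at least 2-fold higher, Ctla4, and 2 at least 2-fold lower. Cd83, which protects CD86 and class II molecules from degradation in antigen-presenting cells, was at -1.25 ± 0.20. Trat1, which encodes an adaptor (TRIM) of the T cell receptor that also promotes transport of CTLA-4 to the surface, was 8.32-fold lower, at -3.06 ± 0.23, and at -2.21 with normexp. Marchf8, which encodes a ubiquitin ligase of surface proteins, was at 0.99 ± 0.21. The median of the list was 0.40, but -0.35 with the mean of measured probes in place of the brightest.

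The RefSeq promoter table held 4 of the 10 genes (Cd80, Slamf1, Slamf6 and Cd48), as windows from 250 bases before to 50 after a start site. Both probes of Cd80 were higher, as were both of Slamf6, and only the Cd80 window is printed. The window is chr16:38458683-38458982 on the plus strand (GRCm38.p6), and capitals mark the match to the AP-1 motif TGANTCA.
Cd80 promoter: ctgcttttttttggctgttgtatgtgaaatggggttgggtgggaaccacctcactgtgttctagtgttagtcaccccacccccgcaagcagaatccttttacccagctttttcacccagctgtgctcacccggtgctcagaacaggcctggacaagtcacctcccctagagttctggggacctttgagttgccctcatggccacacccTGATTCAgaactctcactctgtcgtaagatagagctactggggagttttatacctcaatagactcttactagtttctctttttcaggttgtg
On both strands, TGANTCA was found in 7.81% of the 32851 promoter windows of that length, and among these 4 genes only in Cd80. The window of Cd80 and that of Slamf1 also held the E-box CAGCTG, found in 16.3% of windows. The NFAT core GGAAA, in 61.3% of windows, had 1 match each in Slamf1 and Cd48. The GAS element TTCNNNGAA (8.30%) and the NF-kappaB pattern, GGG and TTTCC parted by 2 bases of any kind (1.63%), were in none of the 4 windows. The Slamf6 window held none of the motifs searched, although both probes of that gene were higher too. No motif overlapped another in the Cd80 window. A match is a run of letters, not a bound site.

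Cd226 encodes DNAM-1, an activating receptor of T cells and natural killer cells for the nectin-like ligand CD155 and for nectin-2. Its 1 probe had an intensity of 323 for naive-only and 55.5 for co-culture cells, or levels of 0.11 and -2.44. The lowest level called well above background on the co-culture array was -3.90, so the probe was dim there but measured. The difference was -2.55 ± 0.23, and 126 of the 14378 measured genes had a lower one. With normexp it was -1.74, that is 3.34-fold lower in place of 5.87-fold.

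Tigit encodes the inhibitory receptor that shares the ligands of CD226. It had 293 and 939 intensity units (naive-only first), a difference of 1.67 ± 0.21, against the direction of Cd226. The level of Tigit relative to Cd226 changed by 4.22 ± 0.31, or 18.7-fold, and by 3.13 with normexp. Cd96, another receptor for CD155, was at 0.22 ± 0.20. Of the ligand genes, Pvr (CD155) was at -0.38 ± 0.20 and Nectin2 at 0.47 ± 0.26. Pvrl3, the gene of nectin-3, exceeded background in the co-culture alone, at least 1.28-fold higher there. Of the 5 measured genes of this axis, 1 was at least 2-fold higher, Tigit, and 1 at least 2-fold lower, Cd226, and the median was 0.22. Most genes of the natural killer cell marker list were lower in the co-culture, but not all. Of 7 markers 4 were measured on both arrays, with a median of -1.04. Tyrobp (-1.5) and Fcer1g (-1.25) were past 2-fold lower, Klra1 was at -0.83, and Gzma was past 2-fold higher (1.80). Ncr1 and Klra8 exceeded background for naive-only alone, and Klrb1c in neither culture. The summed level of the list was 28.1 for naive-only and 76.4 for co-culture, but 6.93 and 2.84 without Gzma. The receptor genes Klrc1 and Klrd1, counted here with the CD8 T cell markers, went the other way. Klrc1 was at 3.65 ± 0.35 (1.96 with normexp). Klrd1 exceeded background in the co-culture alone and was at least 4.62-fold higher there, but at 1.03 (log2) with normexp. The part of natural killer cells in the Cd226 value was not tested.

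**Figure D3:**
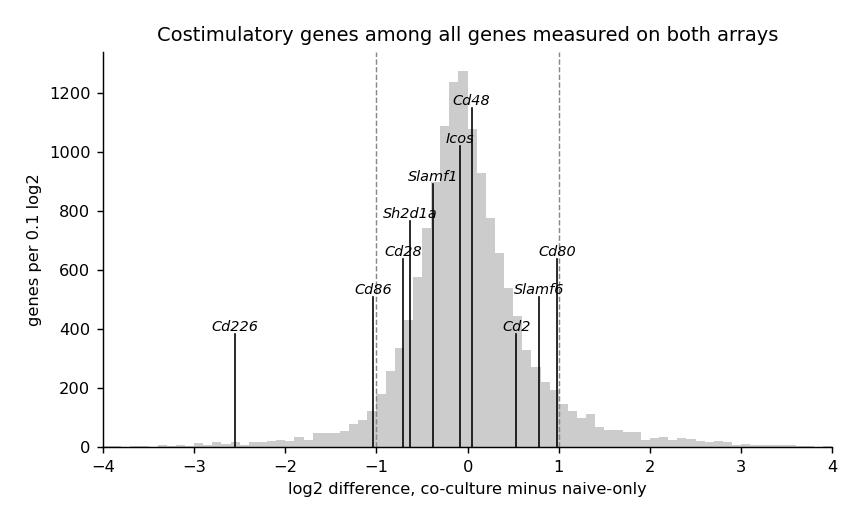
Number of genes per 0.1 log2 by log2 difference (co-culture minus naive-only) for the 14378 genes measured on both arrays (grey), with a vertical line at each of the 10 costimulatory genes; line heights only keep the names apart, the axis is drawn from -4 to 4, and dashed lines mark 2-fold. Cd226 lies in the lower tail, Cd86 and Cd80 lie at the 2-fold lines, and the other genes lie between them.

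Slamf1 encodes SLAM (CD150), a receptor that binds itself on the opposing cell. Its probe (chromosome 1, 173730343 to 173730402) had 1942 (naive-only) and 1502 (co-culture) intensity units, a difference of -0.38 ± 0.20. Slamf6 encodes Ly108, another self-binding receptor of this family, and both of its probes were higher on the co-culture array. The probe printed above had 370 and 642, a difference of 0.79 ± 0.20, or 1.72-fold. The other probe (173873620 to 173873679) had 401 and 573, a difference of 0.51. Slamf6 relative to Slamf1 changed by 1.17 ± 0.29, and by 0.89 with the other Slamf6 probe.

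Sh2d1a encodes SAP, which couples SLAM receptors to the kinase Fyn. Its probe (chromosome X, 39875116 to 39875175) had 9584 intensity units for naive-only and 6217 for co-culture cells. It was lower on the co-culture array, at -0.63 ± 0.20 or 1.55-fold, and so moved against Slamf6, whose level relative to Sh2d1a changed by 1.42 ± 0.29. Sh2d1b1, which encodes the related adaptor EAT-2, exceeded background in the co-culture alone and was at least 3.02-fold higher there, but at 0.63 (log2) with normexp. Of the 8 measured adaptors and effectors of the family, none differed by 2-fold in either direction. These include Fyn (-0.52) and the phosphatase genes Ptpn6 (0.68), Ptpn11 (-0.19) and Inpp5d (0.80). Their median was 0.01.

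Most SLAM receptor genes lie side by side on chromosome 1, and their differences did not run together. In RefSeq order (GRCm38.p6) the row begins with Cd244a, which encodes a receptor for CD48 (-0.26), Ly9 (0.08) and Slamf7 (-1.77 ± 0.22). It goes on with Cd48 (0.04), Slamf1 (-0.38), Cd84 (0.46) and Slamf6 (0.79). Between Cd48 and Slamf1 that table also lists Tma7-ps, which was not analysed here. Of these 7 measured receptors only Slamf7 was past 2-fold. It was 3.42-fold lower, and at -1.23 with normexp. Slamf8 and Slamf9, outside this row, exceeded background in the naive-only culture alone. They were at least 1.85-fold and 6.83-fold lower in the co-culture, but at -0.58 and -1.54 (log2) with normexp. Of 10 measured monocyte and macrophage markers, 5 were at least 2-fold lower and none at least 2-fold higher. Their median was -0.79, but -0.37 with normexp. In all, 9 of these differences were negative and 1 positive. Csf1r (-0.06 ± 0.20) and Adgre1 (-0.09 ± 0.41) lay within their errors, and Itgam was the positive one (0.37 ± 0.20). Of the other 2 markers of that list, Vcam1 exceeded background for naive-only alone and Fcgr1 in neither culture. The summed level of the list was 25.9 for naive-only and 17.9 for co-culture. Dendritic cell markers were also mostly lower, with 7 of 8 measured differences negative and a median of -0.78. Fscn1, Flt3 and Tcf4 were past 2-fold lower and Batf3 past 2-fold higher. Ccl22 and Ccl17 exceeded background for naive-only alone, and Xcr1, Clec9a, Cd209a and Clec10a in neither culture. The summed level of the list was 217 for naive-only and 231 for co-culture, but 212 and 176 without Batf3. Most of that sum came from Siglech alone (48922 and 45263 intensity units, -0.12 ± 0.20), so it says little about the other genes of the list. Siglech had 1 measured probe of 3, so its level rests on that probe. The part of either kind of cell in the SLAM receptor values was not tested.

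**Figure D4:**
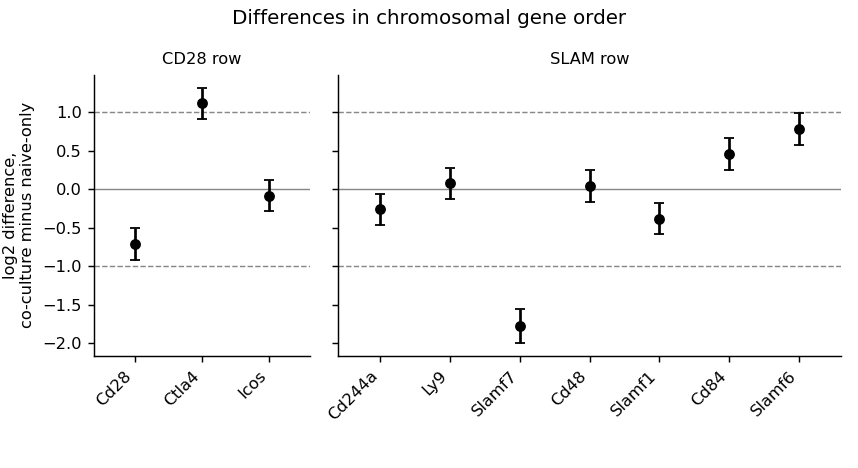
Log2 difference (co-culture minus naive-only, technical error as bars) of the genes of the CD28 row and the SLAM row in their order along chromosome 1, not to scale in distance; dashed lines mark 2-fold. Ctla4 lies above the upper line and Slamf7 below the lower line, and their neighbours lie between the lines.

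Cd2 encodes an adhesion receptor that gathers at the T cell contact, and Cd48 its ligand in the mouse. The brighter Cd2 probe (chromosome 3, 101079831 to 101079890) had 59160 intensity units for naive-only and 86215 for co-culture cells, a difference of 0.53 ± 0.20 or 1.45-fold. The exon-joining probe printed above gave 0.65. Its 10 spots ranged from 11812 to 13300 (median 12609) on the naive-only array and from 19185 to 20663 (median 19847) on the co-culture array. The SD of these spots was 0.050 and 0.038 (log2), but they repeat the measurement of 1 RNA sample and not the culture. Cd48 had 12501 and 12972 on its brighter probe (chromosome 1, 173635201 to 173635260) and 6994 and 7088 on the other (173629721 to 173629780). Its differences of 0.04 ± 0.20 and 0.01 lie within the error. Of 8 measured genes around CD2, 1 was at least 2-fold higher and none lower, with a median of -0.11. That gene was Pstpip1 (1.61 ± 0.20), whose product binds the CD2 tail.

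Downstream of CD28 and ICOS, 27 of 28 listed signalling genes were measured, with a median of 0.14. There were 17 positive and 10 negative differences, and 1 gene was past 2-fold in each direction. The lower one was Rel, the NF-kappaB subunit gene linked to CD28 costimulation, at -2.15 ± 0.32. Its co-culture level of -3.54 was close to the lowest level called above background, and its difference was -1.05 with normexp. The higher one was Pdk1 (1.31 ± 0.20), which encodes a mitochondrial kinase of pyruvate dehydrogenase and not the signalling kinase of that nickname, whose gene Pdpk1 was at 0.13. Among the 12 CD4 T cell markers (median 0.16), Trat1 and Cd6 were lower by 2-fold or more, which is 2 genes, and none was higher. The CD8 T cell markers had 1 of 4 measured genes at least 2-fold higher (Klrc1) and 1 lower (Eomes, -3.84 ± 0.23), with a median of -0.02. Klrd1, the other marker of that list, exceeded background in the co-culture alone.

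**Figure D5:**
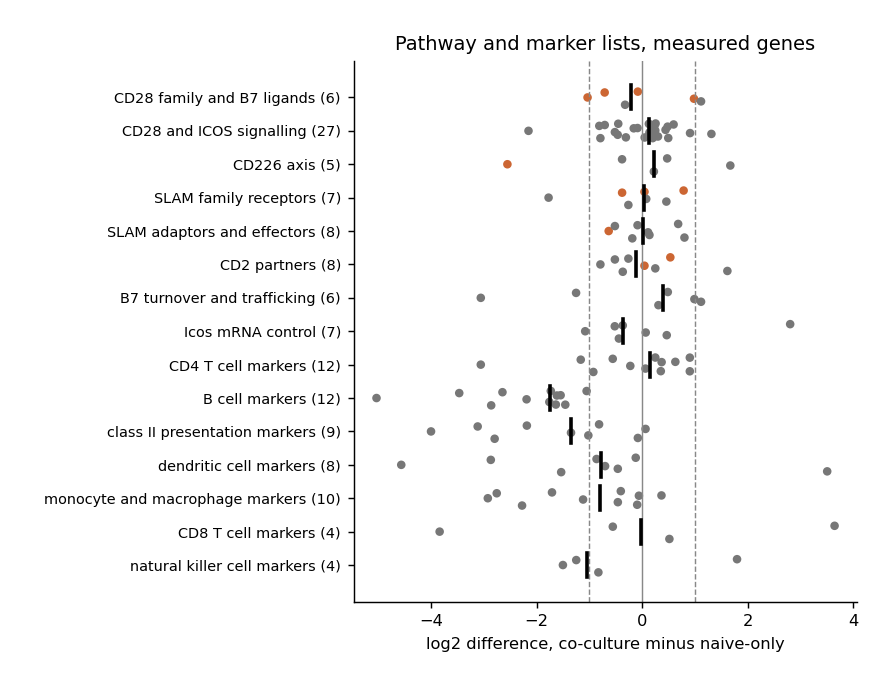
Log2 difference (co-culture minus naive-only) of every gene measured on both arrays in each pathway and marker list, with the number of genes in brackets; orange points are the costimulatory genes, grey points the others, thick bars the list medians and dashed lines 2-fold. The pathway lists have medians between -0.37 and 0.40, whereas the B cell markers have a median of -1.74.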

How the data were processed

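The array files hold processed spot intensity, with spatial and multiplicative detrending within the array by Agilent Feature Extraction, version 10.7.1.1 per the file headers and 9.5.1.1 per the submitters' processing notes. RNA was amplified and labelled with Cy3, per the labels' protocols. The deposited value table holds intensity that the authors normalized, and its sorted columns differ by at most 0.0369%.

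Spots of a probe were averaged on the log2 scale and the array's 75th percentile of noncontrol probes was subtracted (299.4 and 301.3 intensity units). A gene took its probe with the highest mean level, and was measured if both arrays had that probe well above background. A gene above background on 1 array has a bound, against the higher of its own signal and the lowest level above background on the other array. Names came from the files, updated through RefSeq accessions for 27235 probes. No noncontrol spot was saturated.

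The genes and lists were chosen with earlier results of these data known. The rule named all 10 genes, partners of their products, and up to 4 genes past 2-fold per list and direction; marker genes were mostly counted. Outside that rule, Fyn, Ptpn6, Ptpn11, Inpp5d, Pdpk1, Marchf1, Marchf8, Lrba, Rc3h1 and Rc3h2 were named after their values were seen. So were Klra1, Siglech, Csf1r, Adgre1, Itgam and markers not measured on both arrays. Exon and UTR annotation on mm9, and the position of Cd226, were not used here. Python 3.11.15, numpy 2.4.6, pandas 2.3.3, R 4.3.3 and limma 3.58.1 (normexp, offset 50) were used. Scaling and counting were run on simulated data. Its changes were all past 2-fold and its noise was below the technical error, so calls near 2-fold were not tested.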

Additional observations from a re-analysis of the deposited data

How the results depend on the processing

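With 1 array per group the values have no replicate check, and no replicate could be left out. No paired analysis was possible because each group has 1 array. Alternatives changed the background correction, scaling, use of the deposited table, marked spots, probe choice and filter, 10 in all, of which the dimmest measured probe was added after seeing the data. The count of costimulatory genes at least 2-fold higher was 1 in place of 0 with median scaling, with the percentile over detected probes, with the mean of measured probes and with the dimmest measured probe. The count at least 2-fold lower was 1 in place of 2 with normexp, median scaling and the percentile over detected probes, and 0 among the 6 genes kept when only brighter genes were used. Cd226 was lowest in all 9 alternatives that kept it, at -2.55 to -1.74. Most of these could hardly alter that rank. A scaling by 1 factor per array shifts all genes alike, and probe choice cannot change the value of Cd226, which has 1 probe. Quantile normalization and the deposited table gave Cd226 the same value. Cd80 ranged from 0.72 to 1.5, Cd86 from -1.05 to -0.96 and Slamf6 from 0.51 to 0.84. Only Icos changed sign, in 4 of 10. Over all genes, 797 were higher and 529 lower with normexp, in place of 1110 and 796, 363 and 193 among the 7189 brighter genes, and 2458 and 2155 of 27665 with no filter on dim probes, which moved the median of all genes from -0.05 to 0.11.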

Other observations

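Genes that act on Icos mRNA, belong to its induction or are induced through ICOS were measured in 7 of 7 cases, with a median of -0.37. Rc3h1 and Rc3h2, which encode the Roquin proteins that destabilise Icos mRNA, were at -0.37 ± 0.20 and -0.52 ± 0.20. Zc3h12a, which encodes Regnase-1, another protein that degrades it, was at -1.08 ± 0.21, past 2-fold, but at -0.88 with normexp. Maf, whose product is induced through ICOS, was 6.99-fold higher in the co-culture (208 and 1464 intensity units for naive-only and co-culture), the only gene of the list at least 2-fold higher. Icos itself stayed within its error on the brightest probe (-0.08 ± 0.20).

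The probes of Marchf1, the gene of the ubiquitin ligase that removes CD86 and class II molecules from the surface, disagreed. Its brighter probe gave 0.31 ± 0.20 and the other -2.66, so no direction is given for this gene. Lrba, whose product protects CTLA-4 from degradation, was at 0.49 ± 0.20 on its 1 measured probe of 4.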
